A study of Homo sapiens with 6 samples.

Results

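The 38 genes described here encode the chains of the integrins and of the laminins. They were chosen by symbol from the 54308 genes of the deposited table. The rule uses no measured value, but earlier results of these data were known when it was chosen. Of these, 26 encode integrin chains (18 alpha and 8 beta) and 12 encode laminin chains (5 alpha, 4 beta and 3 gamma). RNA came from 143B, a human osteosarcoma cell line. The KO group received a plasmid carrying Cas9 and a guide against CNTNAP4, a membrane protein of the neurexin superfamily. The vector control (VC) group received a negative control plasmid, for which the study lists a guide sequence of its own. Each group had 3 RNA samples taken as biological replicates. The labels give 48 h of transfection, whereas the methods describe a longer incubation, followed by sorting of single cells into colonies. The clone behind each RNA sample is not given, so effects of the deletion and of the choice of clone cannot be told apart, and p-values measure the spread between these RNA samples. CNTNAP4 itself had a log2 signal of -7.18 in VC replicate 3 and an empty cell in the other 5 libraries, so its RNA level in these libraries does not separate the groups. The study reports separate checks of the deletion in its clones by qRT-PCR, western blot and an endonuclease assay.

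The values are log2 signals that had been quantile-normalized between libraries. Their linear unit and the read depth are not given in the sources used here, so no counting error can be attached. Levels are tested between libraries for 1 gene and not between genes. Ranks by mean signal, words such as weak, and sums of markers do set genes side by side, and the unknown unit limits them. Genes with a value numbered from 20333 to 21041 per library. Of the 9 osteoblast and mesenchymal markers, VIM had 10.33 to 10.93 and SPARC 6.46 to 6.95 across the 6 libraries. CDH2 had 4.82 to 5.18, COL1A1 2.28 to 2.73, RUNX2 1.30 to 1.69 and ALPL -1.34 to -0.49. SP7 lacked a value in VC replicate 1 and KO replicate 2 and had -7.66 to -6.52 elsewhere. BGLAP had values in KO replicates 1 and 2 only (-2.84 and -2.91), and IBSP had none in any library. In these bulk samples, fewer cells of a type and less RNA per cell cannot be told apart.

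Integrins are receptors made of 1 alpha and 1 beta chain, and they link proteins of the extracellular matrix, or ligands on other cells, to the actin cytoskeleton. Their cytoplasmic tails bind talin and kindlins, around which focal adhesions assemble. Laminins are secreted trimers of 1 alpha, 1 beta and 1 gamma chain that form the scaffold of basement membranes and are bound by a subset of integrins. In osteosarcoma, as in other solid tumours, integrins are known for their part in attachment, migration and spread.

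Of the 38 genes, 36 had a value in all 6 libraries and were tested, ITGAD had a value in 2 libraries, and ITGA8 had none. With a threshold of 0.05 on the adjusted p, 21 of the 36 passed the test (58.3%), 11 higher and 10 lower in KO, whereas 32.9% of all 19306 tested genes passed, 13.1% higher and 19.8% lower. The median log2 fold change (KO minus VC) was 0.22 over the tested members and -0.125 over all tested genes, and the median size of the log2 fold change regardless of sign was 0.66 and 0.39. The KO and VC values did not overlap in 28 of the 36 members, and in 59.3% of all genes with 6 values. Changes of at least 2-fold passed the test in 7 members, beside 9.53% of all genes. The share called was higher among strongly expressed genes (39.2% of genes in the upper 50% of mean signal and 26.6% of the others), and 12 of the 17 members in that upper group were called. The balance of directions moved with the genes tested and with the processing. When only the upper group was tested, 16 of its 17 members were called, 13 higher and 3 lower. In that fit 5702 of all 9653 genes were called, 2263 higher and 3439 lower. With median-centred libraries the members called were 13 higher and 9 lower, and all genes called were 3005 higher and 3233 lower.

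The number of calls depended on single libraries, among the members and over all genes. With 1 library left out, 9 members were called when VC replicate 1 was omitted, 14 when it was VC replicate 2 and 7 when it was VC replicate 3. Omitting KO replicate 1 gave 25 calls, KO replicate 2 gave 17 and KO replicate 3 gave 12. All genes called numbered 1403 of 18610, 2450 of 18748 and 1223 of 18626 without VC replicates 1, 2 and 3. They numbered 8669 of 18458, 4393 of 18646 and 2018 of 18584 without KO replicates 1, 2 and 3. Over all genes, the calls turned to 757 higher and 646 lower without VC replicate 1 and to 654 higher and 569 lower without VC replicate 3, and the members called in those fits were 6 higher and 3 lower, and 5 higher and 2 lower. Calls that held in all 6 of these fits were those of ITGA2, ITGA10, ITGAX, ITGB2, LAMA3, LAMB3 and LAMC1, and the ITGA2B call held in none of them. KO replicate 1 lay nearest to the VC mean in 15 of the 21 called members, KO replicates 2 and 3 in 3 each. The same library was nearest in 74.3% of all called genes with 6 values.

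**Figure D1:**
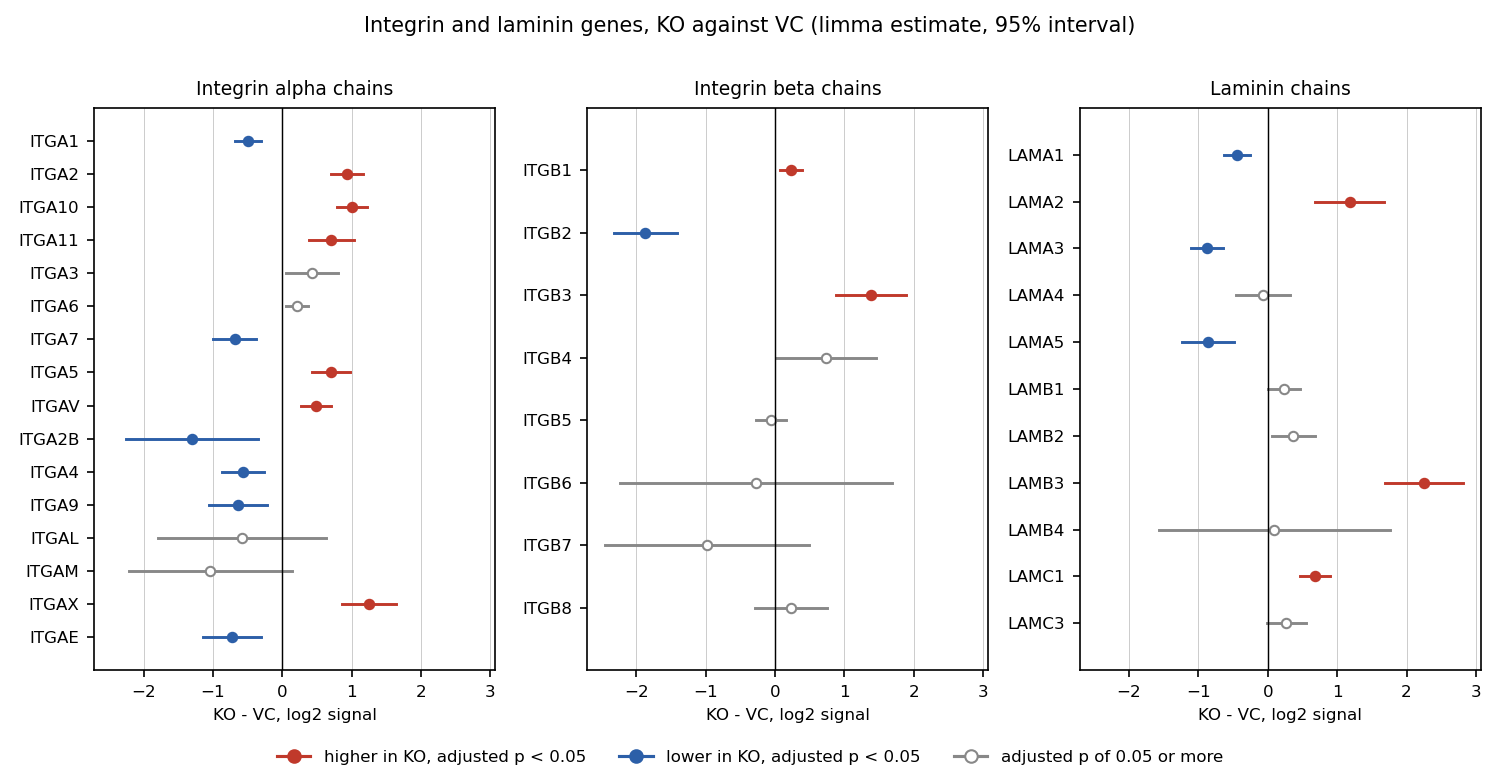
Log2 fold change (KO minus VC, horizontal axis, log2 signal) with its 95% interval for 35 of the 36 tested integrin and laminin genes, from limma. Filled symbols mark the 11 genes called higher and the 10 called lower, open symbols 14 others, and LAMB3 lies farthest to the right at 2.25.

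The collagen-binding alpha chains, ITGA1, ITGA2, ITGA10 and ITGA11, all pair with ITGB1. All 4 were called, 3 higher and 1 lower in KO. ITGA2 and ITGA10 rose about 2.0-fold or slightly less, and ITGA1 fell. The log2 signals of ITGA2 were 5.04, 5.13 and 5.05 in VC and 5.95, 6.16 and 5.92 in KO. Every KO value lay above every VC value, with a log2 fold change of 0.94 ± 0.092 (SE) (adjusted p = 0.00789). ITGA10, best known from cartilage, measured 1.77, 1.74 and 1.72 in VC and 2.62, 2.86 and 2.75 in KO. The groups were again separate, and the log2 fold change was 1.002 ± 0.086 (SE) (adjusted p = 0.00675). For ITGA11, a receptor for fibrillar collagen on mesenchymal cells, the signals were 1.20, 0.98 and 1.15 in VC and 1.60, 1.99 and 1.86 in KO. The groups did not overlap, and the gene rose by 0.71 ± 0.13 (SE) (adjusted p = 0.0182), a call lost without VC replicate 1, 2 or 3 or KO replicate 3 (adjusted p = 0.0568, 0.0565, 0.0634 and 0.0618). ITGA1, whose preferred ligand is collagen IV, measured 2.41, 2.49 and 2.51 in VC and 1.98, 2.03 and 1.91 in KO. All KO values were the lower ones, and ITGA1 changed by -0.49 ± 0.072 (SE) (adjusted p = 0.0123, and 0.0569 without VC replicate 3).

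ITGA1 and ITGA2 are neighbours on chromosome 5 and moved in opposite directions. In RefSeq order by gene start, 1 coding gene, PELO, comes between them, and it overlaps ITGA1. PELO, which encodes a ribosome rescue factor, also rose, by 0.34 ± 0.066 (SE) (adjusted p = 0.0201, and 0.0787 without VC replicate 3). Its exons share 475 bases on the same strand with those of ITGA1 (2.56% of ITGA1 exon bases in GENCODE release 29). The bases before the RefSeq start of both integrin genes (build GRCh38.p14, plus strand) are shown because these adjacent genes changed in opposite directions. They run up to the first base that a GENCODE transcript holds. Matches to GGGCGG, the GC box bound by SP1-like factors, are in capitals on either strand. The ITGA2 stretch held 3 matches and the ITGA1 stretch none.
ITGA1, chr5:52787666-52787895: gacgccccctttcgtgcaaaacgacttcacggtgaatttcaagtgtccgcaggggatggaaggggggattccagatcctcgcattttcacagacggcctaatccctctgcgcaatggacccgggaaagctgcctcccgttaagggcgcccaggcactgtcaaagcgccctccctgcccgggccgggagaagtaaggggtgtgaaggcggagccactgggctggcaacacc
ITGA2, chr5:52989102-52989325: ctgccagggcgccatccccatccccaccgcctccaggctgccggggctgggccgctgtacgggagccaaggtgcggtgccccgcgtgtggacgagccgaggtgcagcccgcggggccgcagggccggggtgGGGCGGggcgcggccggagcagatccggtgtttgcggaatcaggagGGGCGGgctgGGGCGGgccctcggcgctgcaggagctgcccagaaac

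ITGA5 and ITGAV bind the RGD sequence of matrix ligands such as fibronectin, and both rose, whereas the platelet chain ITGA2B fell at the edge of the threshold. ITGA5, the classical fibronectin receptor chain, measured 4.62, 4.48 and 4.61 in VC and 5.15, 5.46 and 5.20 in KO. The groups were separate, at 0.70 ± 0.11 (SE) (adjusted p = 0.0138), and the call was lost without VC replicate 1 or 3 (adjusted p = 0.0518 and 0.0547). ITGAV, which pairs with several beta chains, measured 4.13, 4.22 and 4.18 in VC and 4.67, 4.78 and 4.55 in KO. Each KO value exceeded each VC value, with a difference of 0.49 ± 0.085 (SE) (adjusted p = 0.0161, 0.0642 without VC replicate 1 and 0.0645 without VC replicate 3). ITGA2B had weak signals of -2.87, -3.12 and -2.14 in VC and -3.91, -3.53 and -4.61 in KO. They did not overlap, but they spread widely, and the change of -1.31 ± 0.38 (SE) (adjusted p = 0.0496) missed the threshold whenever any 1 library was left out (0.0547 to 0.114). The platelet markers GP1BA and PF4 had no value in any library, and GP9 had one in KO replicate 1 only. ITGA8, the fourth RGD-binding alpha chain listed, had no value in any library.

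Of the laminin-binding alpha chains, ITGA7 fell, and ITGA3 and ITGA6 did not pass the test over all genes although their KO values all lay above their VC values. ITGA7, the laminin receptor chain of muscle, measured 0.28, 0.25 and 0.31 in VC and -0.16, -0.51 and -0.55 in KO. The groups did not overlap, and the change was -0.69 ± 0.12 (SE) (adjusted p = 0.0173), with the call lost without VC replicate 1, 2 or 3 or KO replicate 3 (adjusted p = 0.0626, 0.0525, 0.0653 and 0.056). ITGA3 ranged from 5.69 to 5.86 in VC and from 5.94 to 6.44 in KO, a difference of 0.43 ± 0.15 (SE) (adjusted p = 0.0786). ITGA6 ranged from 5.00 to 5.07 in VC and from 5.21 to 5.28 in KO, a difference of 0.21 ± 0.065 (SE) (adjusted p = 0.0576). Both passed when only genes in the upper 50% of mean signal were tested (adjusted p = 0.0265 and 0.0192), a fit in which 5702 of 9653 genes passed.

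ITGA4 and ITGA9, related chains that bind fibronectin, VCAM1 and tenascin, both fell. ITGA4 measured 3.98, 4.02 and 3.95 in VC and 3.66, 3.27 and 3.35 in KO. The groups were separate and differed by -0.56 ± 0.12 (SE) (adjusted p = 0.0254), and the call was lost without any 1 library except KO replicate 1 (0.0503 to 0.0791). ITGA9 measured -1.29, -1.40 and -1.55 in VC and -1.82, -1.98 and -2.37 in KO. The KO values were all lower, with a difference of -0.64 ± 0.17 (SE) (adjusted p = 0.0373), and here too the call held only without KO replicate 1 (0.0678 to 0.108 without each of the others). VCAM1, the endothelial ligand of ITGA4, was not tested because it had too few values.

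The alpha chains known from leukocytes split. ITGAX rose, ITGAE fell, and ITGAL and ITGAM, at very low signals, had overlapping groups. ITGAX, a complement receptor chain of myeloid cells, measured -1.20, -1.41 and -1.38 in VC and -0.39, 0.05 and 0.09 in KO. The groups did not overlap, and the difference was 1.25 ± 0.16 (SE) or 2.37-fold (adjusted p = 0.00985). It shrank to 0.48 with 1 added to the linear signal (adjusted p = 0.00734). ITGAE, which pairs with ITGB7 and binds E-cadherin, measured 1.13, 1.18 and 1.07 in VC and 0.73, 0.10 and 0.38 in KO. KO replicate 1 lay closest to VC, and the gene changed by -0.72 ± 0.17 (SE) (adjusted p = 0.03), a call lost without VC replicate 1, 2 or 3 or KO replicate 3 (0.0827 to 0.088). ITGAL differed by -0.58 ± 0.48 (SE) (adjusted p = 0.379) and ITGAM by -1.04 ± 0.47 (SE) (adjusted p = 0.138). ITGAD had -6.93 in VC replicate 1 and -7.96 in KO replicate 3 and no other value.

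ITGB2, the beta chain that ITGAL, ITGAM, ITGAX and ITGAD require, fell the most of the tested integrin chains. Its signals were 0.57, 0.06 and 0.41 in VC and -1.43, -1.78 and -1.37 in KO. No KO value came within a log2 unit of a VC value, and the difference of -1.87 ± 0.18 (SE) (adjusted p = 0.00789) made ITGB2 3.65-fold lower in KO, opposite to its partner ITGAX. The ITGB2 difference was -0.754 with 1 added to the linear signal (adjusted p = 0.00432). The leukocyte marker PTPRC, which nearly all white blood cells carry, had -4.78 to -4.41 in VC and -7.12 to -4.35 in KO. The summed level of the 6 leukocyte markers was 4.44 to 4.52 in VC and 5.71 to 6.46 in KO, and nearly all of it was CD68, a lysosomal protein that also occurs outside blood cells. NKG7 had one in 1 KO library, and CD14 had none in KO replicates 2 and 3. ITGB2-AS1, which overlaps 4.46% of ITGB2 exon bases on the opposite strand, differed by -0.42 (adjusted p = 0.0678). The genes of chromosome 21, where ITGB2 lies, had a median of -0.205 against -0.12 on the other chromosomes.

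Of the other beta chains, ITGB3 and ITGB1 rose, and ITGB4, ITGB5, ITGB6, ITGB7 and ITGB8 did not pass the test. ITGB3, which forms a vitronectin and osteopontin receptor with ITGAV, measured 1.12, 1.22 and 1.14 in VC and 2.26, 2.98 and 2.38 in KO. KO replicate 2 was the highest, all KO values exceeded the VC values, and the gene rose by 1.38 ± 0.20 (SE) or 2.60-fold (adjusted p = 0.0124, 0.0501 without VC replicate 1 and 0.0509 without VC replicate 3). In GENCODE release 29, another protein-coding gene model on the same strand holds 51.6% of ITGB3 exon bases, so ITGB3 signals depend on how shared reads were assigned. ITGB1, the common partner of 12 of the listed alpha chains, measured 7.78, 7.86 and 7.79 in VC and 8.03, 8.06 and 8.04 in KO. The groups were separate by a small margin, and the rise of 0.23 ± 0.064 (SE), or 1.17-fold, was called (adjusted p = 0.0452), yet only without KO replicate 1 did it remain so among the fits with 1 library left out (0.0772 to 0.148 in the others). ITGB4, the epithelial laminin receptor chain, measured -1.74, -2.49 and -1.84 in VC and -1.70, -0.95 and -1.21 in KO. VC replicate 1 and KO replicate 1 almost met, and the difference was 0.73 ± 0.28 (SE) (adjusted p = 0.099).

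ITGB7, the partner of ITGAE and ITGA4 in lymphocytes, measured -4.78, -5.73 and -4.29 in VC and -4.86, -6.45 and -6.43 in KO. The groups overlapped, at -0.98 ± 0.58 (SE) (adjusted p = 0.239), and 42.1% of ITGB7 exon bases also lie in ZNF740 exons on the opposite strand. The kit kept strand, and whether the counting used it is not given in the sources used here. ITGB5, another partner of ITGAV, ranged from 5.13 to 5.26 in VC and from 5.05 to 5.24 in KO. The groups overlapped, and the 95% interval of the log2 difference ran from -0.27 to 0.15. ITGB6 differed by -0.27 ± 0.78 (SE) (adjusted p = 0.807) and ITGB8 by 0.23 ± 0.21 (SE) (adjusted p = 0.423), both with overlapping groups.

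**Figure D2:**
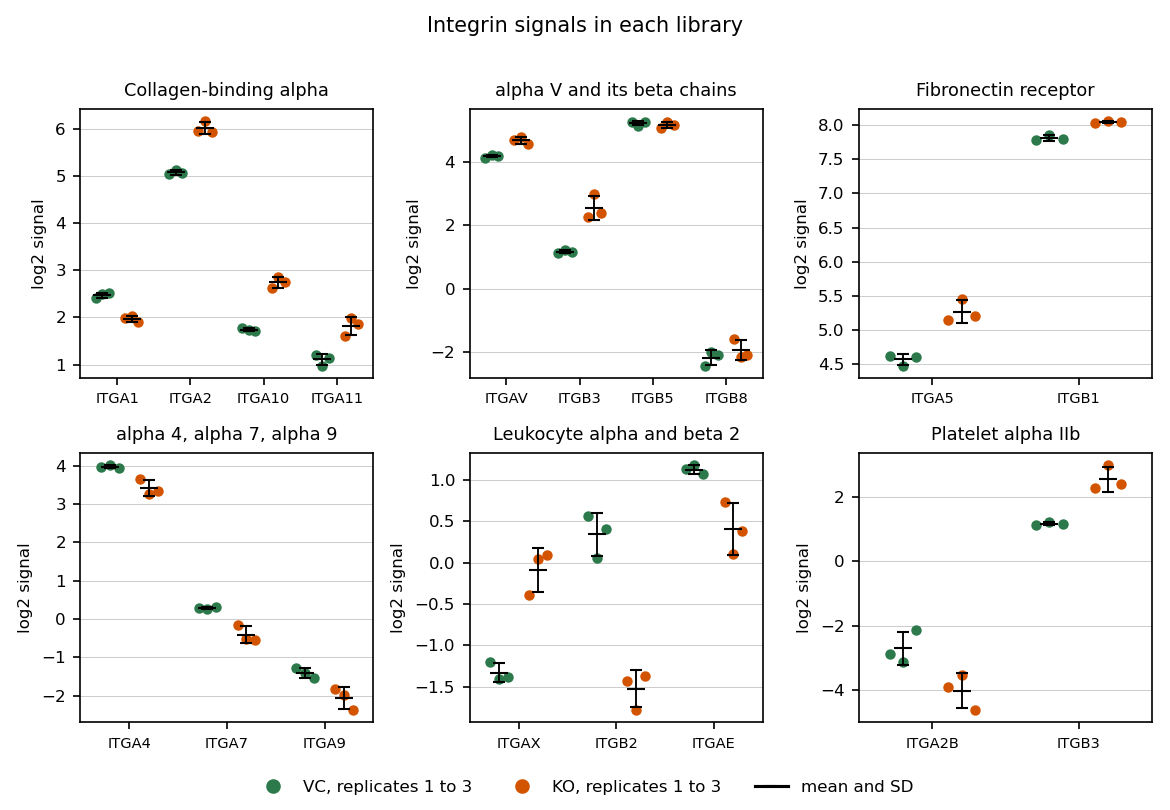
Log2 signal (vertical axis) of integrin chains in each of the 3 VC and 3 KO libraries, grouped by ligand or partner, with the mean and SD as black bars. ITGB2 falls from values between 0.06 and 0.57 to values between -1.78 and -1.37, whereas ITGAX, ITGB3, ITGA2 and ITGA10 lie higher in every KO library.

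Set side by side as the receptors they form, the chains of a receptor did not always move together. For ITGAV with ITGB3 both chains rose, by 0.49 and 1.38, and for ITGA5 with ITGB1 both rose, by 0.70 and 0.23. For ITGA2, ITGA10 and ITGA11 the alpha chain rose with ITGB1, whereas for ITGA1, ITGA4, ITGA7 and ITGA9 it fell while ITGB1 rose. Of the 6 fits with 1 library left out, the ITGB1, ITGA4 and ITGA9 calls each held in 1, and the ITGA7 call in 2. The ITGA2B call held in 0. In other pairs a chain was not called: ITGB5 with ITGAV, ITGA3 and ITGA6 with ITGB1, ITGAL and ITGAM with ITGB2, and ITGB7 with ITGAE. For ITGAX with ITGB2 the alpha chain rose by 1.25 and the beta chain fell by 1.87, and for ITGA2B with ITGB3 the alpha chain fell by 1.31 and the beta chain rose. These are log2 differences of RNA signals, and receptor protein was not measured in these files.

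LAMB3 rose 4.77-fold, the largest log2 fold change of the 36 tested members, and LAMA3, with which it forms a trimer in epithelial basement membranes, fell. The log2 signals of LAMB3 were 4.16, 3.96 and 4.12 in VC and 5.88, 6.70 and 6.42 in KO. KO replicate 1 was the lowest of the KO libraries and still lay far above VC, and the difference was 2.25 ± 0.22 (SE) (adjusted p = 0.00789). LAMA3 measured 0.58, 0.55 and 0.53 in VC and -0.17, -0.43 and -0.37 in KO. All KO values were lower, and the difference was -0.88 ± 0.092 (SE) (adjusted p = 0.00847). The summed level of the epithelial markers was 9.17 to 9.32 in VC and 9.11 to 9.25 in KO, and most of it was KRT18, at 8.92 to 9.06 in VC and 8.63 to 8.87 in KO (adjusted p = 0.0853). Of the other epithelial markers, KRT14 was without a value in any library, KRT5 without one in KO, and CDH1 had one in VC replicate 2 only, whereas EPCAM was lower in KO (adjusted p = 0.0157) and KRT8 higher (adjusted p = 0.0135). The part of epithelial gene expression in the LAMB3 and LAMA3 values was not tested.

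Among the other laminin alpha chains, LAMA1 and LAMA5 fell, LAMA2 rose, and LAMA4 had overlapping groups. LAMA1, the chain of the early embryonic basement membrane, measured 4.31, 4.29 and 4.30 in VC and 3.93, 3.77 and 3.86 in KO. The groups were separate, at -0.44 ± 0.072 (SE) (adjusted p = 0.0148), and the call was lost without VC replicate 1 or 3 or KO replicate 3 (adjusted p = 0.0604, 0.0619 and 0.053). LAMA5, a chain of many adult basement membranes, measured 1.50, 1.06 and 1.35 in VC and 0.36, 0.62 and 0.36 in KO. No values overlapped, and the difference was -0.86 ± 0.15 (SE) (adjusted p = 0.016, and 0.0554, 0.0621 and 0.0567 without the same 3 libraries in turn). LAMA2, the laminin chain of muscle and of peripheral nerve, measured -1.97, -2.48 and -2.24 in VC and -1.37, -0.86 and -0.93 in KO. The KO values were all higher, by 1.18 ± 0.20 (SE) or 2.26-fold (adjusted p = 0.0152, and 0.0579 and 0.0541 without VC replicate 3 and KO replicate 3). With 1 added to the linear signal, LAMA2 differed by 0.291 (adjusted p = 0.0128). LAMA4, a vascular chain, differed by -0.075 ± 0.15 (SE) (adjusted p = 0.729), and the summed endothelial markers were -4.18 to -3.5 in VC and -4.15 to -3.2 in KO.

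The laminin genes lie on chromosomes that differed in their overall shift. The median log2 fold change was -0.25 on chromosome 20, which holds LAMA5 and where 36% of tested genes were called lower, and -0.19 on chromosome 18, which holds LAMA1 and LAMA3 and where 26.6% were called lower, against -0.12 on the other chromosomes in each case. LAMA3, LAMA1 and LAMA5 fell by 0.88, 0.44 and 0.86. Chromosome 7, which holds LAMB1 and LAMB4, had the same median of -0.19 with 27.1% called lower, and the KO values of LAMB1 lay above its VC values. The part of the chromosome in these values was not tested.

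LAMC1, the gamma chain shared by most laminins, rose in KO, and its common beta partners LAMB1 and LAMB2 did not pass the test over all genes. LAMC1 measured 4.97, 4.95 and 4.97 in VC and 5.55, 5.78 and 5.61 in KO. The VC libraries lay close together (SD 0.0106) and every KO value was higher, by 0.68 ± 0.085 (SE) or 1.61-fold (adjusted p = 0.00985). LAMB1 ranged from 5.71 to 5.74 in VC and from 5.83 to 6.10 in KO, a difference of 0.24 ± 0.091 (SE) (adjusted p = 0.0962). LAMB2 ranged from 2.33 to 2.56 in VC and from 2.60 to 2.92 in KO, a difference of 0.37 ± 0.12 (SE) (adjusted p = 0.0698). Both passed when only genes in the upper 50% of mean signal were tested (adjusted p = 0.0376 and 0.0225), the fit in which 5702 of 9653 genes passed. LAMC3 differed by 0.27 ± 0.11 (SE) (adjusted p = 0.119), and LAMB4, the neighbour of LAMB1 on chromosome 7, by 0.10 ± 0.66 (SE) with overlapping groups (adjusted p = 0.921).

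LAMB3 and LAMC1, both on chromosome 1, were the laminin genes called higher in every fit with 1 library left out. The bases before their RefSeq starts (minus strand for LAMB3, plus strand for LAMC1) are therefore shown. They are again from GRCh38.p14, with GC boxes in capitals on either strand. LAMB3 held 1 match and LAMC1 held 3.
LAMB3, chr1:209652467-209652675: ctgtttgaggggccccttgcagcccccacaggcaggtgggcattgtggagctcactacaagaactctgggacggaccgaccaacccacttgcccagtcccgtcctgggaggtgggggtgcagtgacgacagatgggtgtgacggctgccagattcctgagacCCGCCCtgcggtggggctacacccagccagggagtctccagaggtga
LAMC1, chr1:183023170-183023419: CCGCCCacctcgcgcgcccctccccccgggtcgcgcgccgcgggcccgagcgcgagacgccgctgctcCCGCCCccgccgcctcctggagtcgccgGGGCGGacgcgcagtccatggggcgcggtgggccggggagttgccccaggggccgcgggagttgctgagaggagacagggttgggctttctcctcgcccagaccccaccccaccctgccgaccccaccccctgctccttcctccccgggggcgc

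In windows of 300 bases (250 before the RefSeq start and 50 after it), 26 of the 38 members had an entry. GGGCGG was found in 14 of the 26 and in 44.6% of all 27305 promoters in the table, or 65.7% of those of tested genes. GGAATG, the core letters of TEAD sites, was found in 4 of the 26 (ITGA10, ITGA5, ITGB1 and LAMA2), in 14% of all promoters and in 11.3% of those of tested genes. The AP-1 letters TGANTCA were found in ITGA5 and LAMA3 and in 7.76% of all promoters, TGACGTCA (CRE) in no member and in 1.98%, and ATTGCATCA (CHOP and ATF4) in ITGB5 and in 0.264%. All were read on both strands, no searched motif contains another, and a match is a description of letters only.

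**Figure D3:**
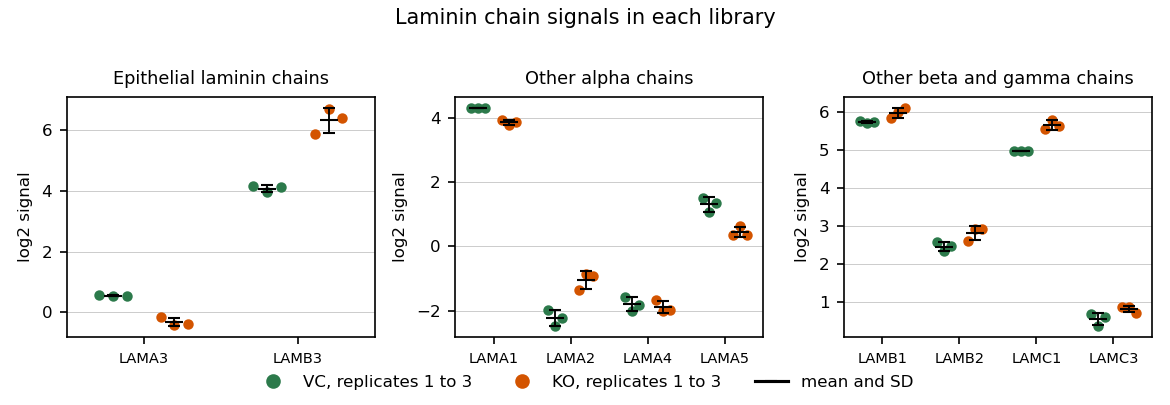
Log2 signal (vertical axis) of 10 laminin chains in each of the 3 VC and 3 KO libraries, with the mean and SD as black bars. LAMB3 lies between 5.88 and 6.70 in KO and between 3.96 and 4.16 in VC, whereas LAMA3, LAMA1 and LAMA5 lie lower in every KO library.

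Among genes for other proteins of the laminin network and for other integrin ligands, COL4A1, COL4A2, HSPG2, SPP1 and ICAM1 rose by more than 2-fold and EDIL3 fell by more than that. Of 32 such genes, 28 were tested and 17 were called (60.7%), 13 higher and 4 lower in KO, beside 32.9% of all genes called, 13.1% higher and 19.8% lower. Of the 28, 22 lie in the upper 50% of mean signal, where 39.2% of all genes were called. The median log2 fold change of the list was 0.18, and the count ranged from 8 without VC replicate 3 to 20 without KO replicate 1. In those fits, all genes called numbered 1223 of 18626 and 8669 of 18458. Of the basement membrane partners of laminin, the collagen IV chains COL4A1 and COL4A2 rose by 1.23 and 1.15 on the log2 scale (adjusted p = 0.00571 and 0.00675). HSPG2, or perlecan, rose by 1.59 (adjusted p = 0.0101). Of the syndecans, which are heparan sulphate co-receptors, SDC4 rose by 0.69 (adjusted p = 0.019) and SDC1 fell by 0.56 (adjusted p = 0.0287).

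Ligands of the RGD-binding receptors were among those that rose. SPP1, or osteopontin, rose by 1.55 (adjusted p = 0.00963) and FN1, or fibronectin, by 0.57 (adjusted p = 0.0105). TNC, or tenascin C, a ligand of ITGA9, rose by 0.83 (adjusted p = 0.00857) while ITGA9 fell. EDIL3, an RGD protein that binds ITGAV receptors, fell by 1.84 (adjusted p = 0.00466). ICAM1, a counter-receptor of ITGB2 integrins, rose by 2.84 (adjusted p = 0.00597), the opposite direction to ITGB2. Among collagen genes outside basement membranes, COL6A1 and COL6A2 rose by 0.63 and 0.97 (adjusted p = 0.0131 and 0.0111) and COL1A2 fell by 0.81 (adjusted p = 0.0161). The calls of SDC4, SDC1, FN1, COL6A1 and COL1A2 did not hold with each library left out in turn, with adjusted p up to 0.0689 and 0.0504 for SDC4 and FN1 and 0.0525 for COL6A1 without VC replicate 3, 0.0895 for SDC1 without VC replicate 1 and 0.0571 for COL1A2 without KO replicate 3. COL1A2 had weak signals, and it was not called with 1 added to the linear signal (adjusted p = 0.388). AGRN, COL1A1, TGFB1 and CD151 were also called, the first 3 higher and CD151, a tetraspanin that binds laminin receptors, lower. None of these 4 calls held in all 6 fits with 1 library left out. AGRN was called in 0 of them (adjusted p up to 0.112, without KO replicate 3), COL1A1 in 1 (up to 0.0994, without VC replicate 3), TGFB1 in 1 (up to 0.0821, without KO replicate 3) and CD151 in 2 (up to 0.122, without VC replicate 3), and CD151 was not called with median-centred libraries (adjusted p = 0.0998).

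Intracellular partners of integrin tails were called in both directions. All 28 listed genes were tested and 13 were called (46.4%), 6 higher and 7 lower, beside 32.9% of all genes. Of the list, 21 genes lie in the upper 50% of mean signal, where 10 were called (39.2% of all genes there). With median-centred libraries 10 were called, 6 higher and 4 lower. FERMT3, the kindlin of blood cells, rose by 1.13 (adjusted p = 0.0435), PARVB by 0.91 (adjusted p = 0.0131), BCAR1, a scaffold phosphorylated by SRC, by 0.64 (adjusted p = 0.0238) and LIMS1, a partner of ILK, by 0.59 (adjusted p = 0.0219). TNS1, a tensin that links integrin tails to actin, fell by 0.80 (adjusted p = 0.0132). The other 8 called genes changed by less than 0.5 on the log2 scale, FERMT1 and PARVG higher and VCL, PARVA, SRC, TNS3, ACTN1 and ITGB1BP1 lower. No call in the list held in all 6 fits with 1 library left out, and the count in limma fell to 0 without VC replicate 3 (12 at an unadjusted p under 0.05) and rose to 16 without KO replicate 1. Without that control library the adjusted p was 0.0502 for PARVB, 0.0766 for LIMS1 and 0.0551 for TNS1, and without KO replicate 3 it was 0.117 for FERMT3 and 0.0727 for BCAR1.

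**Figure D4:**
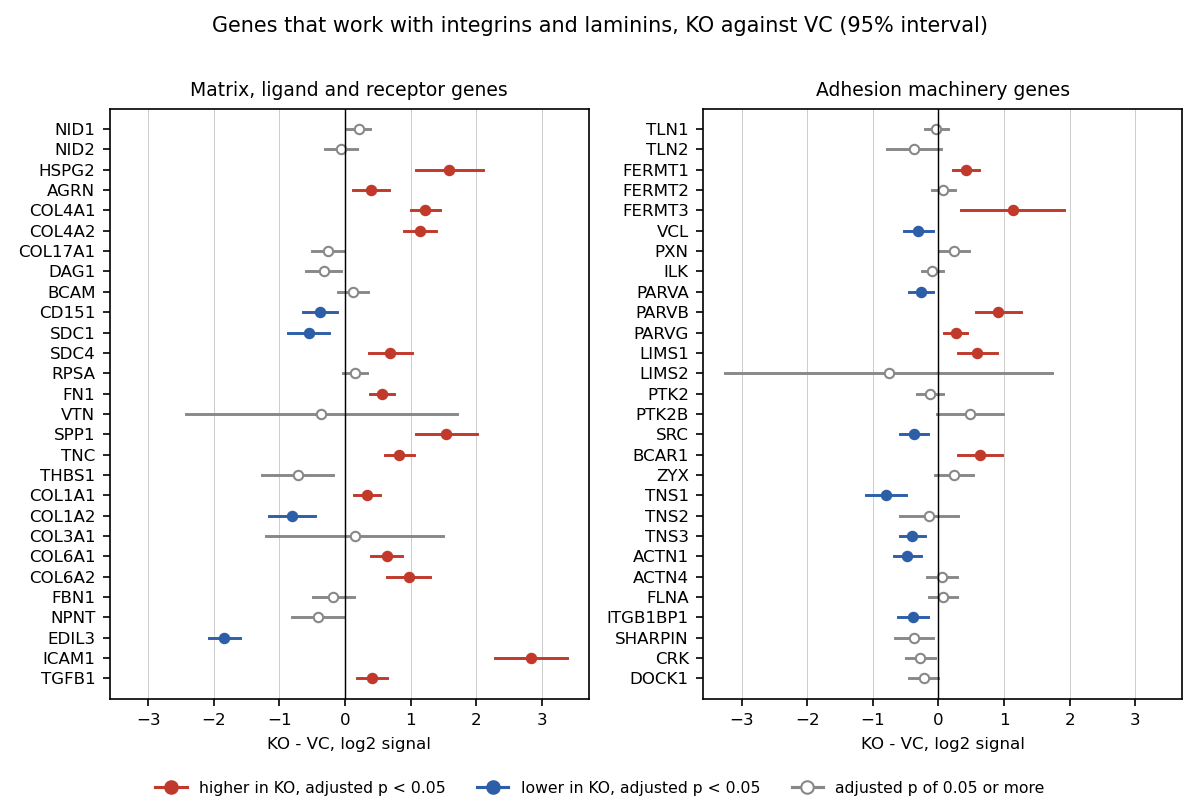
Log2 fold change (KO minus VC, horizontal axis, log2 signal) with its 95% interval for the tested genes of the matrix and ligand list and of the adhesion machinery list, 28 in each. ICAM1 lies farthest to the right at 2.84 and EDIL3 farthest to the left at -1.84.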

How the data were processed

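RNA libraries (a stranded mRNA kit, per the labels) of 3 VC and 3 CNTNAP4 KO samples of 143B cells were sequenced by the authors on an Illumina NextSeq instrument. The submitters' processing notes name CASAVA, STAR, Partek and genome build GRCh38.p13, and the methods name Partek and the CLC Genomics software. The deposited values are log2 signals, quantile-normalized between libraries, of a linear unit that is not given in the sources used here. An empty cell marks a gene without a value. Read counts were not used here, so the depth is unknown.

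The log2 signals were used as deposited. The 19306 genes with at least 2 values per group were compared with limma 3.58.1 (linear model, empirical Bayes moderation without trend, two-sided) in R 4.3.3, with Benjamini-Hochberg adjustment over all of them. A gene was called at an adjusted p under 0.05. The script was tested on simulated data.

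Members were taken by symbol. Members are named, with 6 values for those called, for those with separate groups and a log2 fold change of at least 0.5, and for ITGB1, ITGB7, ITGAV, ITGB3 and ITGA5. From the other lists, called genes past 0.5 are named with values, and genes outside this rule (PELO, ITGB2-AS1, the markers) were added after values were seen or as markers. A member and a marker that the counts include are not reported here by name. The members, lists and tests were chosen with earlier results of these data known. Chromosomes, gene order and promoters came from RefSeq tables (GRCh38.p14) and exon overlaps from GENCODE release 29. The alternatives were other filters, scalings, moderation, library weights, a replicate block, a 2-fold threshold and each library left out in turn.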

Additional observations from a re-analysis of the deposited data

How the results depend on the processing

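Members called numbered 21, and from 16 to 28 under the other filters, scalings, moderation and library weights, 7 with a 2-fold threshold and from 7 to 25 with 1 library left out. All genes called numbered 6354, against 10670 with library weights, 1840 with a 2-fold threshold and 1223 to 8669 with 1 library left out. The matrix and ligand list gave 17 calls, 6 with a 2-fold threshold and 8 to 20 with 1 library left out, and the adhesion machinery list gave 13, 20 with library weights, 1 with a 2-fold threshold and 0 to 16. The ITGA2B call was lost under most alternatives (adjusted p up to 0.131), and those of ITGA9 and ITGB1 with empty cells set to the lowest signal (0.0561 for both). Without moderation those of ITGA9 and ITGAE were lost too (0.069 and 0.0591). Called members kept their direction in each of these settings. Uncalled members changed sign in 10 of 230 comparisons of a member with a setting (called members in 0 of 327), ITGB6 to 0.00562 with 1 added to the linear signal and 0.389 without KO replicate 3 (-1.11 to 0.389 over single libraries left out), ITGB5 to 0.0251 with median-centred libraries, LAMA4 to 0.00836 with median-centred libraries, 0.103 with repeated quantile normalization and 0.0378 without VC replicate 1 (-0.184 to 0.0378 likewise), and LAMB4 to -0.00161 with 1 added, -0.516 with library weights, -0.615 without VC replicate 2 and -0.181 without KO replicate 2 (-0.615 to 0.468 likewise). The cause was not tested. The median of all genes moved from -0.125 to -0.0419 with median-centred libraries and to -0.0226 with 1 added to the linear signal.

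Same-numbered VC and KO libraries did not deviate together (r = 0.0226, 0.00509 and -0.00736 over 17698 genes). The sources used here do not say whether same-numbered samples were prepared together, and these correlations cannot decide it. With a replicate block, 7 members, 1533 genes in all, 6 matrix and ligand genes and 0 adhesion machinery genes were called by limma, and 14 of the latter list had an unadjusted p under 0.05.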
